A study of Mus musculus with 62 samples.

Results

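The comparison covers HT-22 cells that received an antisense oligonucleotide against Hsf1 or a scramble oligonucleotide and then a control peptide, without amyloid beta. Its members are 7 of the 62 libraries of the series, chosen by their titles: 3 long-RNA libraries labelled anti-Hsf1 and 4 labelled scramble control, all with the reverse peptide. Per the labels, cells of passage 4 (200000 cells per treatment) received the anti-Hsf1 locked nucleic acid oligonucleotide (LNA) at 150 nM, or the scramble LNA at 50 uM as the labels write it, for 24 h. Both groups then received 30 uM of a peptide that carries the amyloid beta sequence in reverse order (42-1), in DMSO. The groups therefore share the cell line, the passage and the peptide, and as labelled they differ in the oligonucleotide and in its dose. The design text calls the libraries biological replicates. The series also holds the same LNA pair with amyloid beta 1-42 and libraries from mouse hippocampus, and the amyloid beta libraries enter here only to share the estimate of spread and in the test of the difference between peptides.

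Hsf1 encodes the main transcription factor of the heat shock response, which binds inverted repeats of the bases GAA in the promoters of chaperone genes when proteins misfold. Chaperones such as the Hsp70 and Hsp90 families hold or refold client proteins, and small heat shock proteins and Bag3 pass damaged ones on for removal. An LNA is an oligonucleotide with locked sugars that pairs tightly with a complementary RNA. The sources used here give neither the sequence nor the chemistry of the LNA, so the site it pairs with is not shown.

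No gene passed the test between the anti-Hsf1 and the scramble libraries, and Hsf1 itself was not detectably lower. The median chaperone gene differed by -0.10 log2, by -0.01 without scramble library 4, and by 0.01 relative to all genes with quantile normalisation. Other settings kept the difference, at -0.11 relative to all genes with the 7 libraries alone and -0.13 without scramble library 1. The largest departures in these 7 libraries were in 1 scramble library, number 4, which held several times more immediate-early gene RNA than the other 6. Levels are TPM, a transcript level corrected for length and for the size of the library, after scaling each library by the median of its ratios to the average library, and differences are log2(scaled TPM + 1), anti-Hsf1 minus scramble.

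The labels call HT-22 a hippocampal line, and its marker genes were checked in the 7 libraries. Of 14 neuron markers 2 reached the minimum, Tubb3 at a mean of 2.84 and Eno2 at 6.39 scaled TPM, while Rbfox3, Map2 and Snap25 were listed at 0 in all 7. The summed neuron markers ran from 8.60 to 14.3 in the scramble and from 7.75 to 10.9 in the anti-Hsf1 libraries. All 10 mesenchymal markers were present, with means of 1483 for Col1a2 and 757 for Col1a1, and their sums ran from 6053 to 8901 and from 6060 to 6672. Endothelial markers summed to at most 0.552. Most neuron markers were thus listed at or near 0 (Slc17a7 and Camk2a at most 0.535 and 0.678), and a listed 0 in files without read counts does not show that a gene is silent, since Rnu11, a spliceosomal RNA gene, was also listed at 0 in all 7. In bulk RNA, fewer cells of a type and less RNA per cell cannot be told apart.

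The promoters of the heat shock genes show what the factor is known to read. Of the 5 tested heat shock genes whose window held the element searched here, 3 are printed as examples. The element searched was 3 alternating units of GAA and TTC, each separated by any 2 bases, starting with either unit, which covers both strands. Matches, which may overlap, are in capitals. Windows of RefSeq promoters run from 250 bases before to 50 bases after the start, 5′ to 3′ on the gene's strand, on GRCm38.p6. Chordc1, which encodes an Hsp90-binding co-chaperone, is at chr9:18292017-18292316 on the plus strand. Hspe1, which encodes the mitochondrial Hsp10 lid, is at chr1:55087898-55088197 on the plus strand, a window that overlaps that of Hspd1 (mitochondrial Hsp60) on the opposite strand. Hsph1, which encodes the nucleotide exchange factor Hsp110, is at chr5:149636266-149636565 on the minus strand, with its match just past the start.
Chordc1: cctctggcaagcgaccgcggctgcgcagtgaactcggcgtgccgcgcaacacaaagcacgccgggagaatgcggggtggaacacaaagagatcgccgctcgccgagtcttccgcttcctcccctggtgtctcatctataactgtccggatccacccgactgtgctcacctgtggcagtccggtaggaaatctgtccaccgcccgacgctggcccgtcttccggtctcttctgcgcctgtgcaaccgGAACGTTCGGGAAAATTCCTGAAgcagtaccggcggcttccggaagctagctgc
Hspe1: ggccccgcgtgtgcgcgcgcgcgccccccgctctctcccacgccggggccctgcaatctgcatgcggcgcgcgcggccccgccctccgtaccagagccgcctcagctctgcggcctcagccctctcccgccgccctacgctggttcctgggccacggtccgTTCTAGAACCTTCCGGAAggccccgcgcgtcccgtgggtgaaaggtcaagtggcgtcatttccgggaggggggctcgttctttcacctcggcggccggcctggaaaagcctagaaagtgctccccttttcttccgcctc
Hsph1: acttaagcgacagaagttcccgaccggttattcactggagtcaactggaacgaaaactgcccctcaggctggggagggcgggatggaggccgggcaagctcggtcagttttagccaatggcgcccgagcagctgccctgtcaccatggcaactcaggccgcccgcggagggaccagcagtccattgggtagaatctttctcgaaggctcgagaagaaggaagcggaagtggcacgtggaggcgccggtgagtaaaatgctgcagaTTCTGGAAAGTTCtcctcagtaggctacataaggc
The element lay in 198 of 32851 promoter windows (0.603%). A match is a description of these letters and not of binding, and a window without one says nothing of the factor.

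Hsf1 (ENSMUSG00000022556, chromosome 15, 76477422 to 76501913, plus strand) stood at 53.2, 42.9, 61.6 and 56.3 scaled TPM in scramble libraries 1 to 4. In anti-Hsf1 libraries 1 to 3 it stood at 52.4, 42.9 and 48.7. The groups overlapped, and their lowest values were nearly equal, with means of 53.5 ± 7.85 (SD, n = 4) and 48.0 ± 4.79 (SD, n = 3). The difference was -0.15 log2 (SE 0.14), with a 95% interval of -0.46 to 0.16 and a limma adjusted p of 0.959. On the scale of TPM + 1 the interval runs from 27.2% lower to 12.1% higher, so a reduction by more than 27.2% lies outside it. A two-sided exact permutation test of the 7 values gave p = 0.286, where the smallest p that the 35 arrangements allow is 0.0571. With TPM as deposited the difference was -0.11, with an exact p of 0.571. The label of the anti-Hsf1 libraries is thus not borne out by a detectable change in the level of Hsf1 RNA, and the level of the protein was not measured. The libraries are called by their labels below.

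With amyloid beta, Hsf1 stood at 61.3 ± 9.26 (SD, n = 4) in the scramble and 46.9 ± 4.05 (SD, n = 3) in the anti-Hsf1 libraries, on the same scaled TPM. The difference between the peptides in the Hsf1 response was 0.22 log2 (SE 0.20, limma adjusted p = 1.00) with scaled TPM. With TPM as deposited it was 0.96 (limma adjusted p = 0.0240), a scale on which the median of this difference over all genes was 0.68 against 0.02 after scaling. The amyloid beta anti-Hsf1 libraries also differed from the others in composition, as given below with the interaction.

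The genes beside Hsf1 and the other heat shock factors were measured in the same libraries. Of the 8 listed, 6 had enough RNA to be tested, and Hsf5 and Scrt1 were under the minimum. Hsf2, a related factor that can form trimers with Hsf1, stood at 34.0, 36.4, 33.7 and 27.0 scaled TPM in the scramble libraries and at 37.9, 40.8 and 39.2 in the anti-Hsf1 libraries. All 3 anti-Hsf1 values lay above the 4 scramble values, by 0.26 log2 (SE 0.13, limma adjusted p = 0.959) and by 0.17 without scramble library 4. Dgat1, an enzyme of triglyceride synthesis whose gene lies just past the end of Hsf1 on the opposite strand, stood at 39.0, 39.8, 43.6 and 47.4 against 35.8, 38.9 and 37.7, a difference of -0.17. Bop1, a ribosome biogenesis gene that shares the upstream region with Hsf1, differed by -0.32 and by -0.14 without scramble library 4. Hsf4, best known from the lens, differed by -0.27, and Hsbp1, which encodes a protein that binds Hsf1 trimers, by -0.11. None of the 6 was called, and without overlap were 1 higher, Hsf2 (background 3.15% of all genes), and 1 lower, Dgat1 (background 2.82%).

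**Figure D1:**
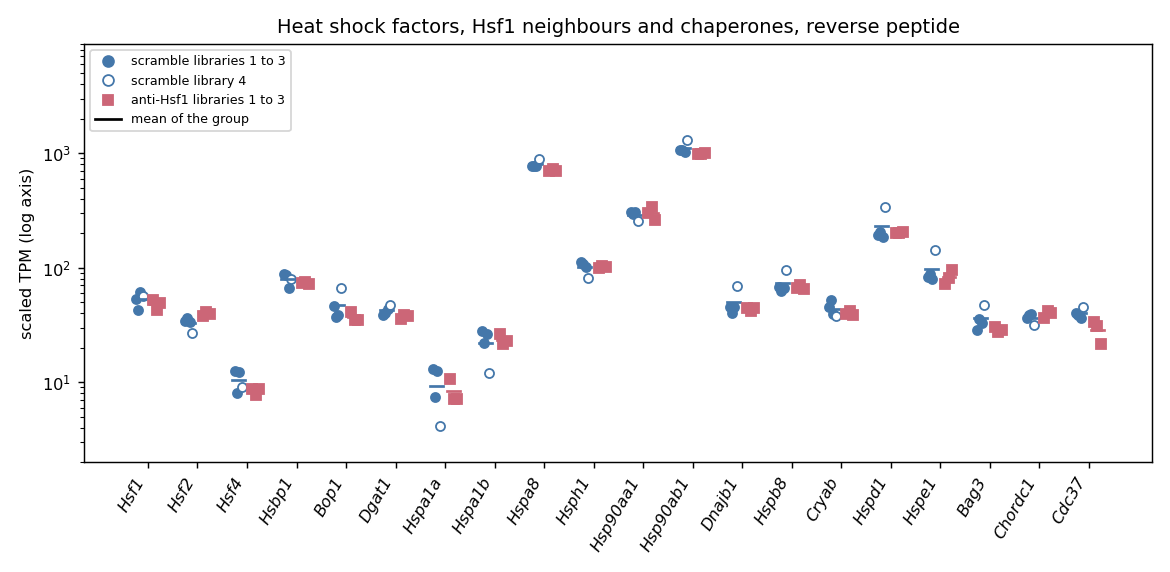
Scaled TPM (log axis) of heat shock factors, the neighbours of Hsf1 and chaperone genes in each library: circles are scramble libraries with the open circle for library 4, squares are anti-Hsf1 libraries, and short lines are group means. Hsf1 overlaps between the groups, Hsf2 (higher) and Dgat1, Hspa8, Hsp90ab1 and Cdc37 (lower) do not, and several chaperone genes have their highest scramble value in library 4. Over all genes tested, 3.15% were higher and 2.82% lower without overlap.

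Across all genes, 0 of 17291 passed an adjusted p below 0.05 (limma, Benjamini-Hochberg, 0%), and the lowest adjusted p was 0.959. At an unadjusted p below 0.05 there were 627 genes (3.63%), of which 273 were higher (1.58%) and 354 lower (2.05%) with the anti-Hsf1 LNA. The 3 and 4 values did not overlap for 1032 genes (5.97%), 545 of them higher (3.15%) and 487 lower (2.82%). The median difference was 0.00 log2 and the median SE 0.23. The 95% interval lay within 1 log2 unit of 0 for 12721 genes (73.6%), and for 8412 of the 9413 genes with a mean of at least 10 scaled TPM (89.4%). These bounds are on the log2(scaled TPM + 1) scale and understate the change of low genes.

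**Figure D2:**
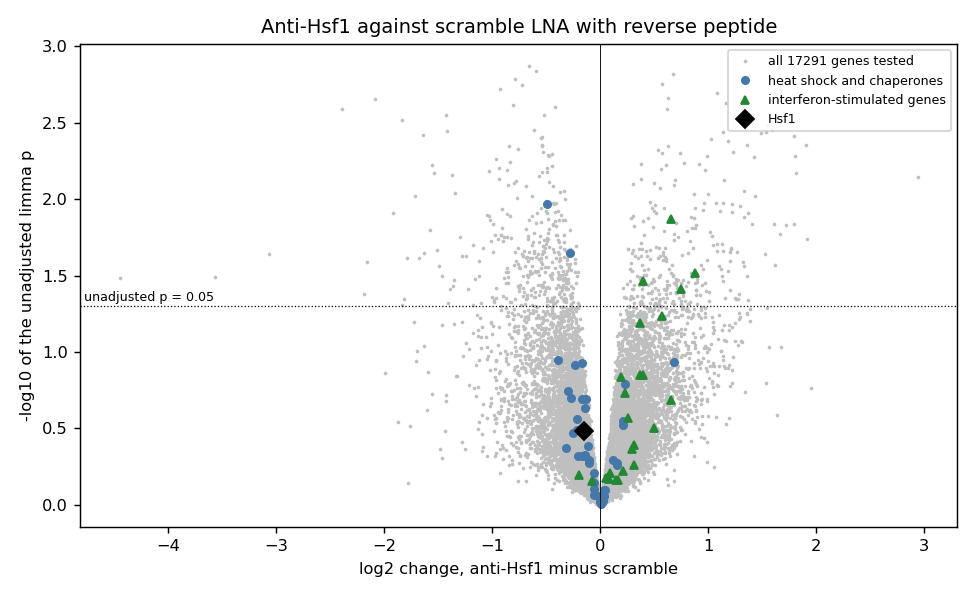
The log2 difference, anti-Hsf1 minus scramble, of each of the 17291 genes tested (x axis) against -log10 of its unadjusted limma p (y axis), with heat shock and chaperone genes, interferon-stimulated genes and Hsf1 marked. The dotted line is an unadjusted p of 0.05, which 627 genes pass, and no gene passes after adjustment.

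Of 44 listed heat shock and chaperone genes, 43 were tested and 0 were called. The exception, Hspb1 (Hsp27), ran from 0 to 1.51 scaled TPM over the 7 libraries. The median difference was -0.10 log2 over the 43 genes and -0.01 without scramble library 4, beside 0.00 over all genes, and with quantile normalisation the list's median lay 0.01 above that of all genes. Relative to all genes it was -0.10 with TPM as deposited and -0.13 without scramble library 1. Above 0 lay 14 genes and below it 29, from -0.49 for Cdc37 to 0.68 for Hspa1l, and 40 of the 43 intervals stayed within 1 log2 unit of 0.

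The most abundant chaperones were Hsp90ab1 and Hspa8, the constitutive Hsp90 and Hsp70 genes. Hsp90ab1 stood at 1067, 1077, 1034 and 1304 scaled TPM in the scramble libraries and at 985, 987 and 997 in the anti-Hsf1 libraries. Hspa8 stood at 771, 777, 778 and 897 against 705, 731 and 706. For both genes all 3 anti-Hsf1 values were below the scramble values, by -0.17 log2 in each case (SE 0.13 and 0.10), and library 4 was the highest scramble value. Without it the differences were -0.10 and -0.12. Serpinh1, the collagen chaperone Hsp47, differed by 0.02.

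Further members were chosen for their roles after their values were seen. Hspa1a, a stress-inducible Hsp70 gene, stood at 13.1, 7.35, 12.5 and 4.18 scaled TPM in the scramble and at 10.6, 7.13 and 7.13 in the anti-Hsf1 libraries. Its near-identical neighbour Hspa1b ran from 12.1 to 27.7 against 21.6 to 26.4, and reads may have been split between this pair, so their separate levels are uncertain. Dnajb1, the inducible Hsp40, stood at 45.6, 40.5, 45.5 and 69.1 against 44.2, 41.5 and 44.6, and its difference of -0.17 became -0.01 without scramble library 4. Bag3, a co-chaperone of selective autophagy, stood at 28.4, 35.5, 33.1 and 47.0 against 30.3, 27.2 and 28.5, a difference of -0.30 (95% interval -0.75 to 0.16). These inducible genes overlapped between the groups.

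Cdc37, the co-chaperone that brings kinases to Hsp90, had the lowest unadjusted p of the list. It stood at 39.8, 38.5, 36.2 and 45.2 scaled TPM in the scramble and at 33.3, 30.9 and 21.5 in the anti-Hsf1 libraries, without overlap, a difference of -0.49 log2 (SE 0.17, limma unadjusted p = 0.0108, adjusted p = 0.959). Bag1, an Hsp70 nucleotide exchange factor, differed by -0.28 (limma unadjusted p = 0.0226). Thus 2 of 43 members passed an unadjusted p below 0.05, both lower (background 2.05% of all genes), and 3 had no overlap, all lower (background 2.82%).

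The genes whose promoters are printed above did not stand apart. Chordc1 stood at 36.0, 38.6, 39.1 and 31.8 scaled TPM in the scramble and at 36.0, 41.6 and 40.6 in the anti-Hsf1 libraries. Hspe1 stood at 82.4, 87.8, 79.1 and 142 against 71.4, 80.7 and 95.2. Hsph1 stood at 112, 109, 101 and 81.6 against 99.5, 103 and 102. All 3 overlapped, with differences of 0.11, -0.21 and 0.02 log2, and of 0.05, -0.02 and -0.08 without scramble library 4. Of 36 heat shock genes with a promoter window, 5 held the element (Chordc1, Dnajb6, Hspd1, Hspe1 and Hsph1). Their median difference was 0.02, with 0 called and 0 without overlap between the groups. Over all 9312 tested genes with a window, the 55 that held the element had a median of 0.02 with 0 called and 1 at an unadjusted p below 0.05 (1.82%), and the 9257 others a median of -0.01 with 248 (2.68%).

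Other protein quality genes lay near 0 as well. All 22 ER chaperone genes were tested, with 0 called and a median of -0.02 log2. Relative to all genes it was 0.02 with quantile normalisation and -0.06 without scramble library 1. Calr, Canx, Hsp90b1 and Hspa5 differed by -0.23, -0.06, -0.02 and 0.08. Manf, a secreted ER stress protein, was the only ER chaperone at an unadjusted p below 0.05 (1 of 22, lower, background 2.05% of all genes). It stood at 57.0, 53.4, 59.4 and 90.8 scaled TPM against 39.4, 46.3 and 49.7. All 31 proteasome genes were tested, with 0 called, a median of -0.09 that became 0.01 without scramble library 4, and every interval within 1 log2 unit of 0. Lower without overlap were 2 of the 22 ER chaperone genes and 2 of the 31 proteasome genes (background 2.82% of all genes), and 0 were higher.

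Scramble library 4 stood apart from the other 6. In it 699 genes lay more than 2-fold outside the range of the others (349 above, 350 below), against 44 to 83 genes for each of the others. On the first principal component of the 14 libraries (33.5% of the variance) it stood at 62.7, beside 64.9 and 67.8 for scramble libraries 3 and 4 of amyloid beta, while the other 11 lay between -26.0 and -12.5. Its relative depth, the ratio of the deposited coverage to FPKM, was 2.60 against 0.810 to 1.21 in the other 6, and protein-coding genes held 55.7% of its TPM against 48.1% to 52.4%. The part of depth in its levels was not tested.

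Immediate-early genes, which cells switch on within minutes of growth factor or serum signals, showed this library most. Their summed level was 6287 scaled TPM in scramble library 4 and 866 to 991 in the other 6. Cyr61, a matricellular gene of this class, stood at 162, 139, 147 and 2195 in the scramble and at 166, 153 and 161 in the anti-Hsf1 libraries. Ctgf stood at 37.6, 32.3, 37.9 and 732 against 36.5, 34.0 and 36.2, and Plk2 at 128, 119, 117 and 435 against 139, 129 and 129. The 3 anti-Hsf1 libraries thus matched scramble libraries 1 to 3 closely for Ctgf, and library 4 alone stood far above them. Of 32 listed genes 29 were tested and 0 called, with a median of -0.51 log2 that became 0.10 without library 4.

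**Figure D3:**
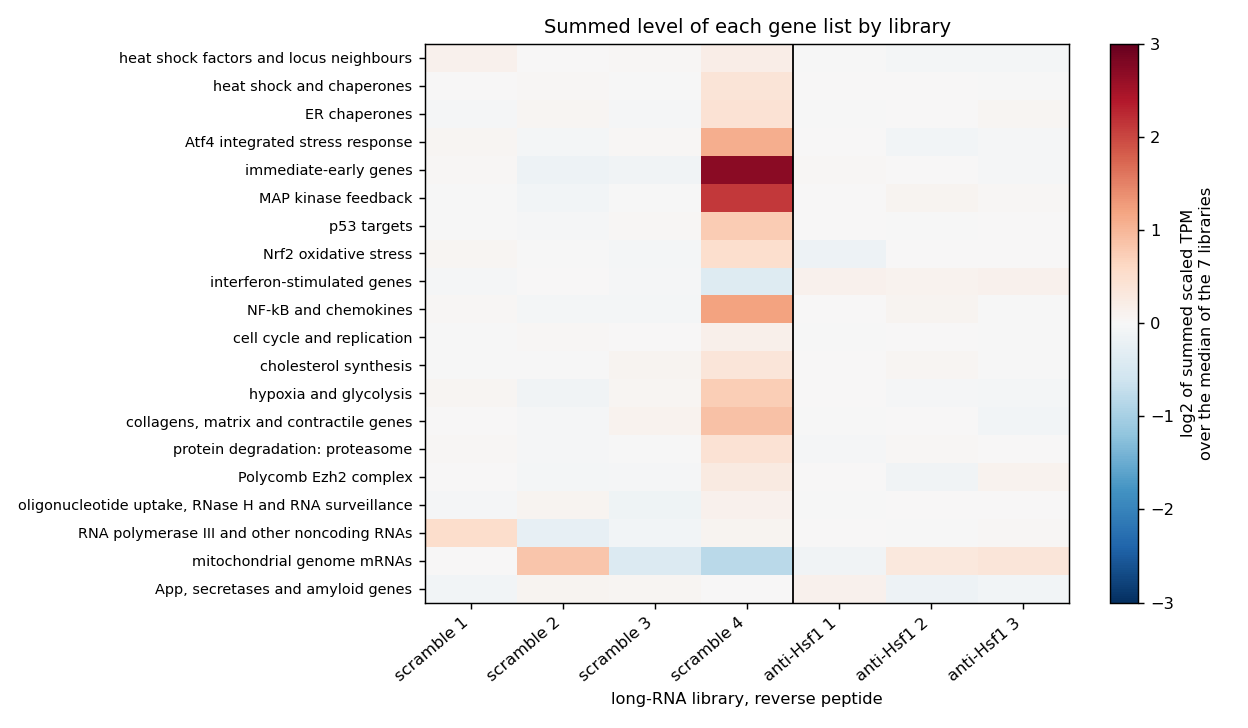
Each row is a gene list and each column a long-RNA library. Color is the log2 of the list's summed scaled TPM over the median of the 7 libraries, and scramble library 4 holds the strongest colors, for immediate-early genes (6287 against 866 to 991 scaled TPM) and for MAP kinase feedback.

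Feedback regulators of the MAP kinase pathway, such as the receptor inhibitor Errfi1, followed the same library. Errfi1 stood at 14.2, 12.4, 14.2 and 321 scaled TPM in the scramble and at 13.7, 18.01 and 16.2 in the anti-Hsf1 libraries. Of 17 tested members 0 were called, with a median of -0.42 log2 that became 0.10 without library 4. Spry1, a feedback inhibitor of receptor kinases, was the only one at an unadjusted p below 0.05 (1 of 17, lower, background 2.05% of all genes). It varied within the anti-Hsf1 group, at 6.85, 0.631 and 0.538 against 3.08, 6.15, 5.79 and 8.94. Without overlap, 1 other member was lower (background 2.82%) and 0 were higher (background 3.15%).

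Genes of the Atf4 integrated stress response, which is engaged when translation initiation is limited, had a median of -0.30 log2 over 29 tested genes, and -0.03 without library 4. Of the 29, 3 were lower without overlap (background 2.82% of all genes) and 0 higher. Atf4 stood at 224, 217, 209 and 490 scaled TPM against 205, 199 and 194. All 3 anti-Hsf1 values were below the scramble values by a narrow margin once library 4 is set aside (-0.12). The targets of p53 (22 tested) had a median of -0.16 and 0.01 without library 4, and Trp53 itself stood at 84.6, 81.2, 95.01 and 134 against 80.2, 66.3 and 71.0. Genes of hypoxia and glycolysis (28 tested) had -0.21 and -0.01, and Nrf2 targets of the oxidative stress response (24 tested) -0.15 and -0.01. No member of these lists was called.

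Interferon-stimulated genes, which cells express when they sense viral or foreign nucleic acid or receive interferon, lay mostly above 0. Of 34 listed genes 24 were tested, 0 were called, and 22 lay above 0, with a median of 0.30 log2 and of 0.16 without scramble library 4. Their summed level was 386, 395, 385 and 301 scaled TPM in the scramble libraries and 435, 426 and 434 in the anti-Hsf1 libraries, without overlap. Of the 24, 6 had no overlap and were higher (background 3.15% of all genes), and 4 had an unadjusted p below 0.05 and were higher (background 1.58%). Without scramble library 4 this last count was 2, where 506 of the 17332 genes tested passed an unadjusted p below 0.05 in either direction. Without all 3 libraries that stand apart it was 6, where 863 of 17295 did. The share of all genes that were higher was not counted in these fits, so the counts have no matching background.

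The values of single interferon genes were low. Oasl2, an antiviral gene of the 2-5 oligoadenylate synthetase family, stood at 5.13, 4.91, 4.61 and 2.27 scaled TPM in the scramble and at 9.15, 8.37 and 7.57 in the anti-Hsf1 libraries (0.88 log2, SE 0.36, limma unadjusted p = 0.0303, adjusted p = 0.959). Ifit1, which binds RNA that lacks host cap methylation, stood at 4.00, 3.92, 3.53 and 4.19 against 6.99, 6.64 and 6.53 (0.65 log2, SE 0.23). These low genes did not overlap between the groups, with or without library 4. Of the more abundant members, Ifi27 stood at 45.2, 46.1, 44.9 and 35.4 against 52.6, 48.4 and 49.3, while Irf1 and Ifit2 overlapped and differed by 0.08 and 0.06. Ifi27 had no overlap, and Stat2 (0.31) became -0.10 without library 4. The interferon genes were picked from lists fixed with earlier results of these data known, and none passed adjustment.

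NF-kB and chemokine genes (17 tested) had a median of -0.09 log2 and 0.05 without library 4, and Csf1, a macrophage growth factor gene, stood at 107, 93.8, 113 and 437 scaled TPM against 107, 109 and 97.9. Cell cycle genes (49 tested) had a median of 0.00, with 47 of 49 intervals within 1 log2 unit of 0. Foxm1, a transcription factor of the G2 and M phases, stood at 55.8, 56.4, 52.4 and 54.0 against 33.0, 51.5 and 38.0, and Ccnb2, a mitotic cyclin, at 11.2, 10.5, 12.8 and 10.8 against 9.37, 7.86 and 7.29. Foxm1 and Ccnb2 were the only cell cycle genes at an unadjusted p below 0.05 (2 of 49 lower, background 2.05%). Without overlap were 3 lower (background 2.82%), both of these among them, and 1 higher (background 3.15%). The abundant replication genes Top2a and Pcna differed by 0.01 and -0.05. Cholesterol synthesis genes (25 tested) had a median of -0.08 (relative to all genes, 0.0030 with quantile normalisation and -0.16 without scramble library 2). Collagens and other matrix genes (32 tested) had -0.24 (and -0.07 without library 4), with 31 below 0. Of these 32, 5 were lower without overlap (background 2.82%) and 0 higher, and 1 was lower at an unadjusted p below 0.05 (background 2.05%). Polycomb genes of the Ezh2 complex (11 tested) had a median of 0.02, and genes of App and its secretases (14 tested) 0.00. App stood at 78.6, 115, 110 and 76.7 against 94.0, 87.0 and 79.9. No member of these lists was called.

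Genes for nuclear RNA surveillance, RNase H and oligonucleotide uptake, of interest because an LNA enters the cells, had a median of -0.05 log2 over 17 tested genes, with 0 called. Sfpq and Nono, RNA-binding proteins of nuclear paraspeckles, differed by 0.07 and -0.05. Neat1, the long noncoding RNA on which paraspeckles form, was among the 8 genes of lowest unadjusted p that were higher. It stood at 327, 343, 367 and 261 scaled TPM in the scramble and at 517, 427 and 561 in the anti-Hsf1 libraries, without overlap (0.63 log2, SE 0.17, limma unadjusted p = 0.00219, adjusted p = 0.959). Its neighbour on chromosome 19, Malat1, stood at 4455, 5086, 4095 and 3233 against 4691, 4908 and 5286 and overlapped.

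RNA polymerase III transcripts and other noncoding RNAs (15 tested) had a median of -0.30 log2 and of -0.60 without library 4, with 0 called. At an unadjusted p below 0.05, 4 of the 15 were lower (background 2.05%) and 1 was higher (background 1.58%), and without library 4 these counts were 2 and 1. In the fit without library 4, 506 of 17332 genes passed in either direction. Rn7s1, a copy of the RNA of the signal recognition particle, stood at 26350, 5916, 12570 and 21960 scaled TPM in the scramble and at 8790, 6529 and 11050 in the anti-Hsf1 libraries. Rmrp, the RNA of an RNase that cuts ribosomal precursors, stood at 4654, 1514, 2937 and 2106 against 1542, 1336 and 2025, and Terc, the telomerase RNA, at 33.1, 8.73, 22.8 and 22.4 against 11.3, 9.59 and 11.9. In all 3 RNAs the scramble libraries spread over more than a 3-fold range, with library 2 the lowest, and the anti-Hsf1 values lay inside that range except for Rmrp in library 2, just under it. Without scramble library 1 the list's median above that of all genes was -0.08. Mitochondrial mRNAs (13 tested) all lay above 0, with a median of 0.32 that became 0.04 without library 4. Relative to all genes their median was 0.61 without scramble library 2. They held 4.96%, 8.66%, 4.22% and 2.91% of TPM in the scramble libraries and 5.23%, 6.49% and 6.40% in the anti-Hsf1 libraries.

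The genes of lowest unadjusted p are given as values, since none passed adjustment. Gatad2b, a subunit of the NuRD chromatin remodelling complex, stood at 34.6, 43.8, 34.1 and 34.0 scaled TPM in the scramble and at 57.9, 58.5 and 58.9 in the anti-Hsf1 libraries (0.67 log2, SE 0.17). Nat9, an N-acetyltransferase gene, stood at 4.49, 5.22, 4.08 and 6.73 against 8.23, 8.54 and 8.09. The other higher genes were the noncoding genes Gm26836 and Gm42425, the pseudogene Gm47250, Neat1 and the miRNA genes Mir7223 and Mir185. Mir185 was listed at 0 in all 4 scramble libraries and at 1.66, 1.37 and 2.97 in the anti-Hsf1 libraries, so no fold is given.

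Among the lower genes, Parp11, an ADP-ribosyltransferase of the nuclear envelope, stood at 15.8, 13.2, 17.2 and 11.5 scaled TPM in the scramble and at 5.63, 8.48 and 7.25 in the anti-Hsf1 libraries (-0.93 log2, SE 0.24). Timm22, a subunit of the carrier translocase of the mitochondrial inner membrane, stood at 15.6, 13.2, 16.7 and 10.0 against 7.43, 7.60 and 7.12. Cops7b, a COP9 signalosome subunit, stood at 13.9, 11.3, 14.4 and 16.1 against 8.89, 6.73 and 9.86. In each of these 3 genes every anti-Hsf1 value was below every scramble value. Cdpf1, Ogfod2, Gm20537, Atp10a and the pseudogene Gm10154 made up the rest. Of the 8 lower genes 7 are annotated as protein-coding, against 2 of the 8 higher genes. Over all 273 genes higher at an unadjusted p below 0.05, 41.0% were protein-coding and 21.6% small noncoding RNAs, while 64.2% and 7.71% of all genes tested were. Of the 354 lower genes, 59.6% were protein-coding and 8.19% small noncoding RNAs, so the 7 of 8 above did not carry over to this larger set. Pseudogenes made up 15.4% of the higher genes, 27.7% of the lower genes and 13.1% of all genes tested.

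**Figure D4:**
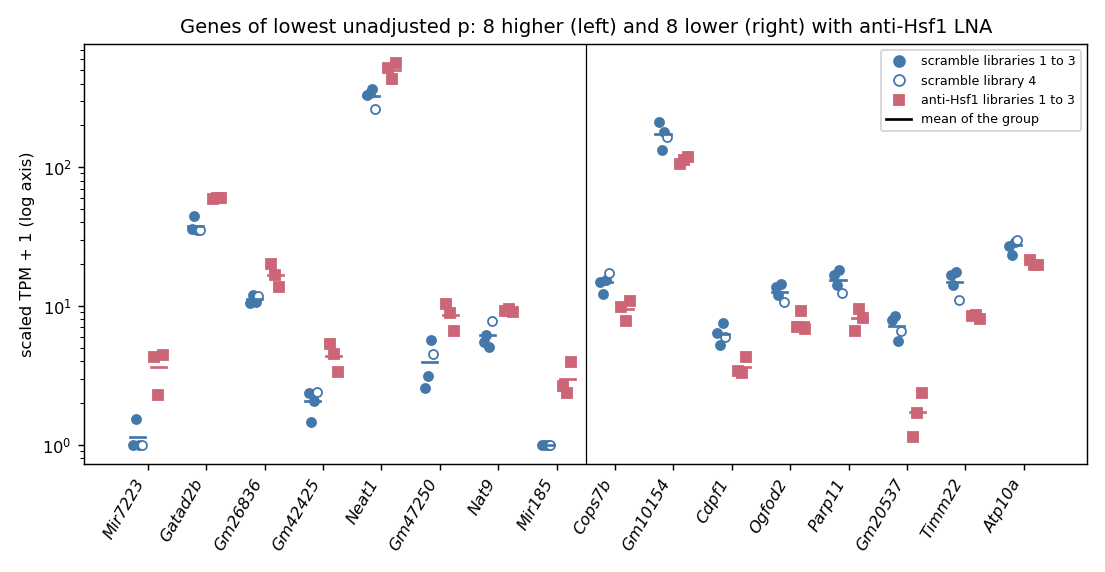
Scaled TPM + 1 (log axis) per library for the 8 higher and the 8 lower genes of lowest unadjusted p, with circles for scramble libraries (open for library 4), squares for anti-Hsf1 libraries and lines for group means. The groups do not overlap in any of the 16 genes, which were picked for their difference, and none passed adjustment.

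The difference between the peptides was tested directly. The interaction of LNA and peptide called 0 of 17291 genes (0%), with 899 at an unadjusted p below 0.05 (5.2%). The LNA contrast with amyloid beta called 4 (0.0231%). These 4 were the miRNA genes Gm25911, Gm24270, Gm24187 and Mir6236 (limma adjusted p = 0.04243 each). They differed by 6.605, 5.542, 6.341 and 6.39 log2 with amyloid beta, and their interactions were -7.027, -6.185, -6.924 and -6.656. The lowest adjusted p of the interaction was 0.3575 (limma), for AC151270.1 (2.255 log2), Gm11808 (-1.183), Gm25911 and Gm24270. Pfdn5 and Mto1, given next, had a higher adjusted p. Pfdn5, a subunit of the prefoldin chaperone of actin and tubulin, stood at 67.3, 65.0, 68.6 and 70.9 scaled TPM in the scramble and at 48.4, 60.7 and 52.9 in the anti-Hsf1 libraries with the reverse peptide. Its differences were -0.33 log2 with the reverse peptide and 0.47 with amyloid beta, and the interaction was -0.80 (SE 0.16, limma adjusted p = 0.423). Mto1, an enzyme of mitochondrial tRNA modification, had 0.31 and -0.63, with an interaction of 0.94 (SE 0.21, limma adjusted p = 0.687). With TPM as deposited the interaction called 4379 genes, 4369 of them higher, beside the median of 0.68 given above.

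A second readout came from short RNA of the same treatments. B2 elements are short repeats that RNA polymerase III transcribes, and the counts along the B2 sequence give the share that lies inside it, at positions above 20 of positions 2 to 120. Scramble libraries 1 to 4 had internal shares of 75.2%, 69.2%, 73.0% and 74.4%, from totals of 2464, 1550, 1873 and 4246 counts. Anti-Hsf1 libraries 1 to 3 had 63.9%, 70.6% and 71.4%, from 2209, 2150 and 2799 counts. The 95% Wilson interval of anti-Hsf1 library 1, 61.9% to 65.9%, lay below those of all other libraries. The intervals of anti-Hsf1 libraries 2 and 3 overlapped those of scramble libraries 2 and 3.

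The means were 73.0% ± 2.64 (SD, n = 4) for scramble and 68.6% ± 4.12 (SD, n = 3) for anti-Hsf1. The difference was -4.36 percentage points, and a two-sided exact permutation test gave p = 0.171 (smallest possible 0.0571). Without anti-Hsf1 library 1 it was -1.99 (exact p = 0.400). Counting positions above 10 gave -4.24 (exact p = 0.0571) and above 40 gave -1.60 (exact p = 0.571). The labels of anti-Hsf1 library 3 name short RNA in the title and long RNA in the description. Since its file lists counts by B2 position it was kept, and without it the difference was -5.75 (exact p = 0.267).

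**Figure D5:**
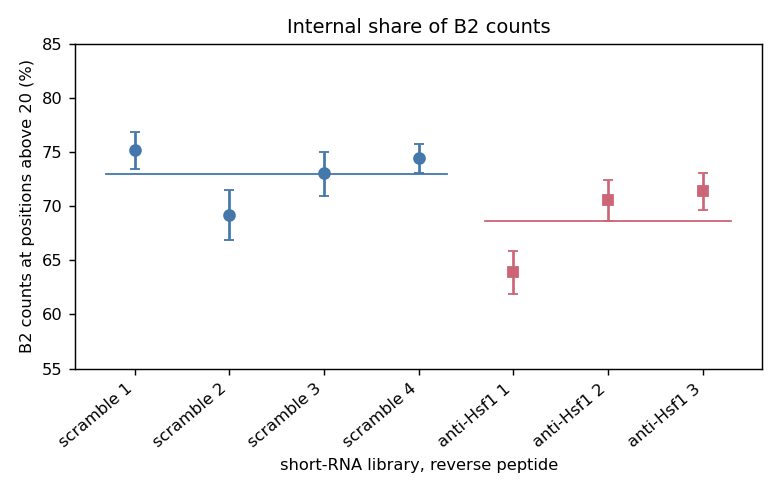
Percent of B2 counts at positions above 20 in each short-RNA library with the reverse peptide. Points are libraries with 95% Wilson intervals, which cover counting error only, horizontal lines are group means of 73.0% and 68.6%, and the y axis starts at 55%. Anti-Hsf1 library 1 is the lowest and the other 2 lie within the scramble range.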

How the data were processed

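Long RNA was measured in 14 HT-22 libraries (4 groups) and B2 RNA in 7 short-RNA libraries with the reverse peptide. The submitters' processing notes name cutadapt 1.18, FastQC, BWA 0.7.17, HISAT2 2.1.0, StringTie 1.3.4d and bedtools 2.26.0, and the builds mm10 and GRCm38, with no roles. Per the file headers, the authors deposited Coverage, FPKM and TPM for each gene of each library. TPM was used for levels. The deposited coverage signal was divided by FPKM to give relative depth, since reads per gene are not given in these units and no count model was run. The deposited B2 count files hold 1 whole number for each of 119 positions, and the sources used here do not say whether a count marks a fragment end or a covered base.

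TPM was summed per gene identifier, and genes with a mean of at least 1 TPM over the 14 libraries were kept. Libraries were scaled by median of ratios. limma 3.58.1 (R 4.3.3), with trend and robust moderation, was run on log2(scaled TPM + 1) with 4 groups in 1 fit and Benjamini-Hochberg adjustment. The fit was tested on simulated data. A fold on this scale understates the change of low genes. GENCODE M21 (GRCm38) lists 53934 of the 53975 gene identifiers, 98.2% of these with identical coordinates. The sources used here do not state strandedness, so reads of overlapping and antisense genes cannot be told apart. Single values were compared by exact permutation (Python 3.11.15, scipy 1.17.1). Named genes were Hsf1 and, in each direction, the 8 genes of lowest unadjusted p (no gene being called). They also included up to 4 members of highest mean TPM of each list. Interaction genes were named from the 8 of lowest unadjusted p in each direction. Others were picked after their values were seen. Some list members are not reported here by name. The members and the lists were chosen with earlier results of these data known. Same-numbered libraries of the groups did not deviate together (correlations of 0.003, 0.029 and 0.015), so replicate numbers were not treated as pairs. Intervals of B2 shares cover counting error alone, because no molecular identifiers are stated that would tell PCR copies apart.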

Additional observations from a re-analysis of the deposited data

Results flagged for a closer look

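Among 64 sets of 4 scramble values, 14 had 1 library farther from the others than Dixon's 95% critical value allows. About 1 in 20 independent normal sets would pass that value. These sets share the same 4 libraries and are not independent, so the 14 cannot be compared with that rate. A set listed at 0 in all 4, such as Mir185, cannot be flagged. Each value in parentheses is the gap to the nearest library over the whole range of the group. In 10 gene lists and 1 marker list the lone library was scramble library 4. It was the highest for MAP kinase feedback (0.984), immediate-early genes (0.978), NF-kB and chemokines (0.949), the Atf4 integrated stress response (0.939), p53 targets (0.933), heat shock and chaperones (0.886), matrix genes (0.88), the proteasome (0.848) and hypoxia and glycolysis (0.845). It was the lowest for interferon-stimulated genes (0.896). It was also the highest for microglia markers (0.864), where Tmem119 stood at 53.8 scaled TPM against 6.60 to 13.8 in the other 6 libraries, with P2ry12, Tyrobp and C1qa listed at 0 in all 7. Scramble library 2 was the lone library for Mir7223 (1.0, at 0.522 scaled TPM with the other 3 listed at 0), for Gatad2b (0.938) and for Mir6236 (0.96, at 12.97 scaled TPM against 0 to 0.514).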

How the results depend on the processing

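The absence of called genes held under 19 of 20 alternatives, among them other scaling, pseudocounts, a stricter minimum, the 7 libraries alone and each library left out. Without a filter on low TPM there were 2 calls, both higher: Gm44632 (limma adjusted p = 0.00108) and Gm22656 (limma adjusted p = 0.0226), each listed at 0 in all 4 scramble libraries. Their means over the 14 libraries were 0.305 and 0.286 TPM, under the minimum of 1. They entered that fit through anti-Hsf1 values of at most 1.80 and 1.89 scaled TPM. A group listed at 0 shows no spread, so these p-values are not taken as support for a difference. The lowest limma adjusted p was 0.0854 without scramble library 2, 0.0863 without anti-Hsf1 library 1 and 0.343 with array weights. Unadjusted p below 0.05 was reached by 1552 genes with array weights and by 1191 without scramble library 2. Leaving out the 3 libraries that stand apart, chosen after seeing the data, gave 863 such genes and 0 calls, and the 6 remaining reverse peptide libraries alone gave 931 and 0. For Hsf1 the difference ran from -0.24 to -0.06 log2 over 20 alternatives, each with a limma adjusted p between 0.683 and 1.0. The interaction called 4379 genes with TPM as deposited, 11 with array weights and 4 without the 3 libraries that stand apart (Praf2, Gm24270, Gm25911 and Gm24187), and 0 to 3 when each library was left out in turn. The cause was not tested. The 3 came without reverse scramble library 4 and 1 came without amyloid beta anti-Hsf1 library 3. With the replicate number as a block there were 0 calls, Hsf1 differed by -0.10 (limma adjusted p = 1.00), and the paired B2 share differed by -3.87 percentage points (exact permutation p = 0.500). With only 3 pairs this paired test cannot give a p below 0.05, whatever the values. The B2 difference ran from -5.75 to -1.60 over 10 alternatives. Genes near 1 TPM and B2 shares from 1550 to 4246 counts carry the least precise values.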
